A study of Mus musculus with 9 samples.

Results

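Gene expression in the brain was compared between 3 mice with intracerebral haemorrhage (ICH, bleeding into the brain) and 3 sham mice, all wild type on a C57BL/6 background and all taken at 72 hours. Genes entered the comparison when 3 or more of the 6 libraries reached 1 FPKM, which were 14888 of the 36346 genes in the deposited table. FPKM is a fragment number corrected for the length of the transcript and the size of the library. The 3 libraries of mice with ICH that also received pterostilbene were left out. No genetic alteration, transgene or drug is labelled in either of the groups compared here, and each library is taken to stand for 1 mouse. How the bleed was made, the sex and age of the mice, the hemisphere and the region sampled are not known here. The groups could therefore hold different mixtures of brain regions.

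Blood that escapes into brain tissue leaves clotted plasma proteins and dying red cells. Microglia, the resident macrophages of the brain, and monocytes that enter from the blood take up this material, break down its haem and store or export the iron and lipid that remain. Astrocytes around the lesion build up intermediate filaments, vessels change their junctions and adhesion molecules, and neurons near the blood are lost or turn down genes of synaptic transmission. Several of these cell types divide in the days after the injury.

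Markers of neurons, oligodendrocytes, microglia, astrocytes and endothelium were present in every library. The synaptic gene Snap25 stood at 109.7, 92.4 and 107 FPKM in sham and 57.2, 42.2 and 39.3 FPKM in ICH, and the myelin gene Mbp at 593, 346 and 295 and 566, 680.4 and 449 FPKM. The microglial receptor gene Csf1r stood at 23.2, 27.0 and 23.5 FPKM in sham and 70.0, 79.5 and 81.5 FPKM in ICH. The astrocytic enzyme gene Aldh1l1 stood at 11.5, 17.3 and 12.8 and 24.7, 23.1 and 27.2 FPKM, and the endothelial adhesion gene Pecam1 at 3.25, 3.30 and 3.00 and 10.8, 12.9 and 14.2 FPKM. Of these genes Snap25 was lower in all 3 ICH libraries, Csf1r, Aldh1l1 and Pecam1 were higher in all 3, and Mbp overlapped between the groups. Other astrocyte markers went both ways, since Gfap and Aqp4 rose and Slc1a2 fell, as given below.

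Most genes differed between the groups. limma was fitted to log2(FPKM + 0.5), and genes with a Benjamini-Hochberg adjusted p under 0.05 count as called. On this scale a difference of 1 is a change of 2-fold, and changes of low genes are understated. Of the 14888 genes 5058 were higher in ICH (34.0%) and 5136 were lower (34.5%). At least 2-fold higher were 2344 genes (15.7%) and at least 2-fold lower were 1640 (11.0%), and the values of the groups did not overlap in 74.2% of genes. The median log2 difference over all tested genes was -0.01, with 90% of genes between -1.36 and 2.02. Rises reached further than falls, since 263 called genes were higher by at least 3 on the log2 scale and 1 was lower by as much. The split between higher and lower depends on how the libraries are scaled to each other. With FPKM rescaled to the same sum 4196 genes were higher and 6249 lower, and 1982 against 2147 were at least 2-fold apart. With globin and mitochondrially encoded genes left out of that sum the counts were 3672 higher and 7187 lower, and 1794 against 2720 were at least 2-fold apart, and the median of all genes moved by -0.15 and -0.27 on these scales. The second of them is called the scale without globin and mitochondrial genes below. Counts of list members below are to be read against the shares of 34.0% and 34.5%.

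**Figure D1:**
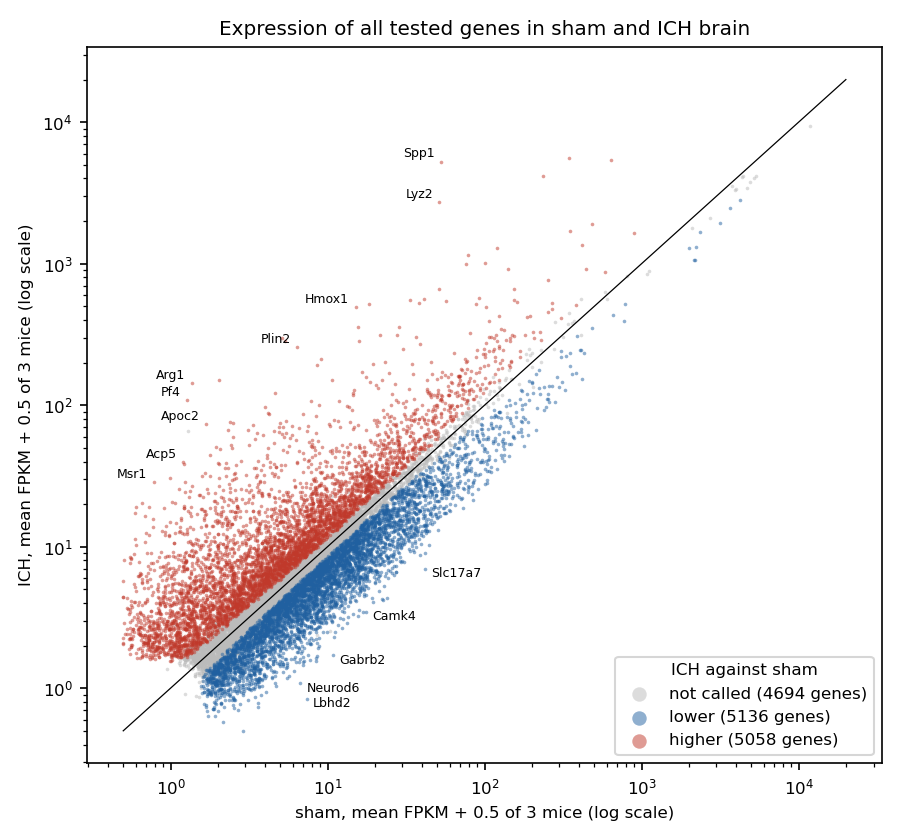
Mean FPKM + 0.5 of 3 ICH mice (vertical, log scale) against that of 3 sham mice (horizontal, log scale) for the 14888 tested genes, with 5058 called higher in red, 5136 called lower in blue and the rest in grey. The line marks equal values, and the red points reach further from it than the blue ones.

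The 6 libraries separated by group. The first principal component held 90.2% of the variance and the second 3.70%. Between 2 libraries of the same group the median absolute log2 difference of a gene was 0.12 to 0.19, and 0.846% to 1.67% of genes were more than 2-fold apart. Between a sham and an ICH library it was 0.45 to 0.68, and 20.5% to 34.0% of genes were more than 2-fold apart. ICH 1 was the ICH library nearest to each of the 3 sham libraries. Estimated depth was 16.3 to 18.6 M fragments per library. Genes that were at least 2-fold higher accounted for 6.70% to 7.74% of the FPKM sum in sham and 28.2% to 33.4% in ICH, and those at least 2-fold lower for 13.7% to 16.3% and 4.38% to 5.94%. These genes were selected for that difference. Mitochondrially encoded transcripts held 22.9%, 21.7% and 22.1% of it in sham and 16.7%, 14.1% and 13.6% in ICH. The means were 22.2% ± 0.648 and 14.8% ± 1.63 (SD, n = 3 each), the values of the groups did not overlap, and the exact two-sided permutation test gave p = 0.1, the smallest p that 3 against 3 allows.

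Spp1 and Arg1 had the largest rises among genes that averaged at least 5 FPKM in a group. Spp1, which encodes the secreted phosphoprotein osteopontin (chromosome 5, 104435118 to 104441050 in the deposited table), measured 32.6, 89.4 and 35.8 FPKM in sham and 4510.5, 6272 and 5015 in ICH. Its log2 difference was 6.78 ± 0.36 (limma adjusted p = 3.68e-06). Arg1, an arginase of alternatively activated macrophages, measured 0.326, 1.13 and 1.14 FPKM in sham and 167, 165 and 97.3 in ICH, a difference of 6.75 ± 0.31 (limma adjusted p = 2.28e-06). In both genes every ICH library lay far above every sham library, and ICH 3 was the lowest for Arg1. Pf4, a CXC chemokine of platelets and some macrophages, rose by 6.45 and Wfdc17, a whey acidic protein family member, by 6.20. Lgals3, the galactoside-binding lectin galectin-3, rose by 5.95, the myeloid lysozyme Lyz2 by 5.77 and the melanosomal and lysosomal glycoprotein Gpnmb by 5.74. The lipid genes Apoc2 and Plin2 rose by 5.51 and 5.37, the haem oxygenase Hmox1 by 5.33, the scavenger receptor Msr1 by 5.20 and the tartrate-resistant acid phosphatase Acp5 by 5.05. Msr1 and Acp5 were under 1 FPKM in all sham libraries and so were tested only through ICH, which fixes their direction. Apoc2 overlaps a neighbouring transcript on the same strand, so its reads could be shared.

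Lbhd2, Neurod6 and Slc17a7 had the largest falls among genes of that level. In bulk tissue, fewer cells of a type and less RNA per cell cannot be told apart. Slc17a7, which loads glutamate into vesicles of cortical neurons (chromosome 7, 45163949 to 45176142), measured 44.8, 32.7 and 46.6 FPKM in sham and 2.08, 10.7 and 6.59 in ICH, a difference of -2.81 ± 0.47 (limma adjusted p = 9.56e-04). Its ICH values are spread widely, with ICH 1 the lowest and ICH 2 the highest, and stay under all sham values. Without ICH 1 the difference was -2.21. Gabrb2, a beta subunit of GABA-A receptors, measured 5.17, 11.4 and 14.3 FPKM in sham and 1.42, 1.04 and 1.15 in ICH, where the spread lay among the sham mice instead. Lbhd2 fell by 3.13, the excitatory-neuron transcription factor Neurod6 by 2.82, the activity-induced transcription factors Egr3 and Egr4 by 2.47 and 2.36, and the neuronal globin Ngb by 2.45. Lbhd2 was under 1 FPKM in all ICH libraries and so was tested only through sham, which fixes its direction. Baiap3, a protein of dense-core vesicle trafficking, fell by 2.42, the calcium-binding calretinin Calb2 by 2.39 and the calcium/calmodulin-dependent kinase Camk4 by 2.34. The adhesion protein Cxadr measured 5.53, 4.94 and 4.63 FPKM in sham and 0.196, 0.0666 and 2.79 in ICH. It fell by 2.34, and without ICH 3, its highest ICH library, the difference was -3.14. Dlx1, a homeobox factor of inhibitory neurons, fell by 2.33. Cxadr overlaps Btg3 on the other strand.

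**Figure D2:**
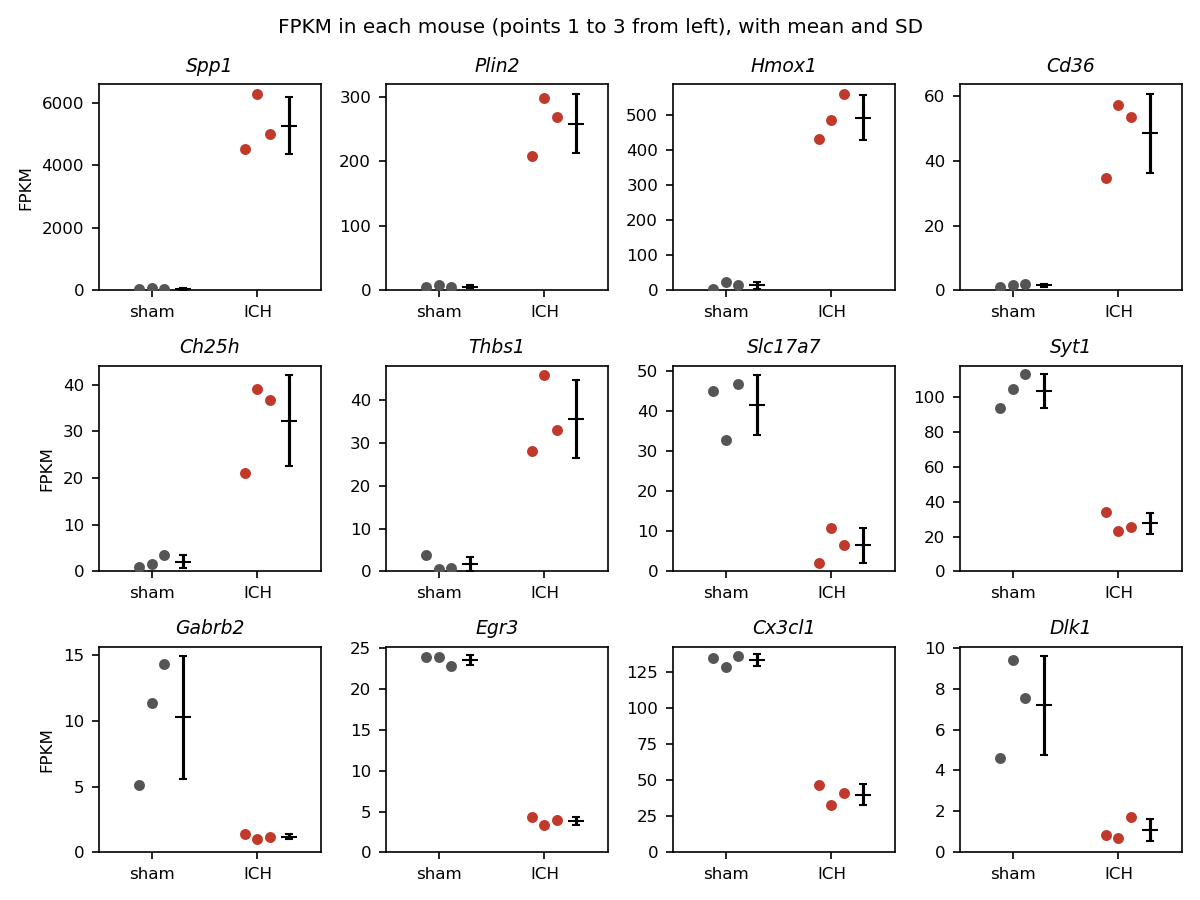
FPKM of 12 genes in each mouse (points, sham in grey and ICH in red) with the mean and SD of 3 mice beside them, each panel on its own axis from 0. In every panel shown, the 3 ICH values lie on 1 side of the 3 sham values. Slc17a7 ran from 2.08 to 10.7 FPKM among the ICH mice and Gabrb2 from 5.17 to 14.3 FPKM among the sham mice.

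Genes that handle haem and iron were mostly higher. Of 12 genes of haemoglobin and haem uptake, breakdown and export 11 were tested, 10 were higher and 0 lower, with a median difference of 0.91. Of the 11, 1 was tested only through ICH. Hmox1, which opens the haem ring, measured 4.02, 23.3 and 16.4 FPKM in sham and 432, 485 and 560.1 in ICH. Sham 1 was the lowest of the sham libraries, and all ICH libraries lay far above the highest sham library. Without sham 1 the difference of Hmox1 was 4.61 in place of 5.33. Blvrb and Blvra, reductases of the biliverdin that Hmox1 makes, rose by 1.83 and 1.34, and Hp, the plasma haptoglobin that binds free haemoglobin, by 1.40. The haemopexin receptor Lrp1 rose by 0.93 and the haem exporter Flvcr1 by 0.87, while haemopexin itself, Hpx, was not called (-0.25), though without sham 1 it was lower (-0.63). In the iron list 14 of 16 genes were tested, 11 were higher and 1 lower, with a median of 1.65 and 1 tested only through ICH. The lower 1 was Ireb2, a sensor of iron, at -0.28, which was not called without ICH 2, ICH 3 or sham 2. The ferritin light chain Ftl1 measured 215, 288 and 207 FPKM in sham and 3554, 4364 and 4629.8 in ICH (4.15 ± 0.18, limma adjusted p = 1.90e-06), and the heavy chain Fth1 rose by 1.76. The siderophore-binding Lcn2 rose by 4.69, the lysosomal iron transporter Slc11a1 by 3.52, the ferrireductase Steap4 by 3.02 and the cellular iron exporter Slc40a1 by 1.55. The transferrin receptor Tfrc and the broad iron importer Slc11a2 were not called, at -0.26 and 0.03. On the scale without globin and mitochondrial genes both were lower, at -0.56 and -0.25, and Tfrc was also lower without sham 3 (-0.36). Ferritin genes have processed copies, so their reads may be split with those.

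Genes that clear clots rose together with genes that form them. All 18 tested of 22 listed coagulation and fibrinolysis genes were higher, with a median of 2.11, and 7 of the 18 were under 1 FPKM in all sham libraries and so were tested only through ICH. F13a1, the fibrin-crosslinking factor XIII subunit that macrophages also make, measured 0.180, 0.280 and 0.245 FPKM in sham and 18.8, 19.3 and 17.4 in ICH (4.69 ± 0.10, limma adjusted p = 5.19e-07). It was among those tested only through ICH, so the filter fixes its direction. F7 and F10, coagulation factors VII and X, rose by 4.35 and 2.78. Plau, the urokinase that activates plasminogen, rose by 4.14 and its receptor Plaur by 3.03. Anxa2, a membrane receptor of plasminogen, rose by 3.85, and tissue-type activator Plat by 1.06.

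Receptors for uptake had the highest median of the lists on phagocytes. All 23 tested of 26 listed phagocytic, Fc and scavenger receptors were higher, 22 of them at least 2-fold, with a median of 3.34. 5 were tested only through ICH, Msr1 among them, so the filter fixes their direction. Cd36, a receptor of oxidised lipid, measured 0.948, 1.75 and 1.98 FPKM in sham and 34.7, 57.3 and 53.7 in ICH (4.58 ± 0.25, limma adjusted p = 3.85e-06). ICH 1 was the lowest of the ICH libraries and still far above the highest sham library. Msr1 and Stab1, scavenger receptors of modified lipoproteins, rose by 5.20 and 4.44, the Fc receptor Fcgr4 by 4.26 and its signalling chain Fcer1g by 4.17. Axl and Mertk, receptor kinases for dying cells, rose by less (1.39 and 1.19). Of the 19 listed lineage transcription factors of myeloid cells 16 were tested, and 15 of these were higher and 0 lower, with a median of 1.87 and 2 tested only through ICH. Spi1 rose by 3.29, Cebpa by 3.19 and Irf8 by 2.69. Sall1, a factor that marks microglia among macrophages, rose by 0.44, and Klf4 was at 0.40 and not called. Sall1 was not called on the scale without globin and mitochondrial genes (0.16), and Klf4 was called without sham 2 (0.56).

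Lipid, arginine and eicosanoid genes of phagocytes also moved. Of 20 genes of lipid loading and cholesterol efflux 19 were tested, with 17 higher, 2 lower and a median of 1.78. The lower pair was the fatty acid binder Fabp3 (-0.38) and the lipase Mgll (-0.31), of which 1 was called without ICH 2, ICH 3, sham 1 or sham 3. Plin2, the coat protein of lipid droplets, measured 4.56, 8.52 and 4.68 FPKM in sham and 209, 298 and 269 in ICH (5.37 ± 0.23, limma adjusted p = 1.93e-06). Ch25h, which makes the oxysterol 25-hydroxycholesterol, measured 0.939, 1.55 and 3.62 FPKM in sham and 21.2, 39.1 and 36.6 in ICH (3.79 ± 0.38, limma adjusted p = 7.19e-05). The groups did not overlap in either gene, and ICH 1 was the lowest ICH library in both. Apoc2 and the lysosomal lipase Lipa rose by 5.51 and 3.20, and the cholesterol exporter Abca1 by 2.71. Among arginine and polyamine genes 12 of 14 were tested, 6 were higher and 2 lower, with a median of 0.40. Arg1 stood apart at 6.75, the next being Sat1, the spermidine acetyltransferase, at 2.05 and the spermine synthase Sms at -1.02. In the eicosanoid list 15 of 20 were tested, 11 were higher and 0 lower, with a median of 1.43 and 5 tested only through ICH. Alox5ap, the activating protein of 5-lipoxygenase, rose by 3.99, thromboxane synthase Tbxas1 by 3.15 and the haematopoietic prostaglandin D synthase Hpgds by 2.23. The inducible cyclooxygenase Ptgs2 was at 0.22 and was not called, while the constitutive Ptgs1 rose by 1.31. In the purine list 14 of 15 were tested, 11 were higher and 2 lower (median 1.10, 3 tested only through ICH), led by the nucleotide receptors P2ry6 (3.24), P2rx4 (2.17) and P2ry2 (1.59). Of 10 enzymes of the kynurenine pathway 1 was tested, Ido1, which fell by 1.35.

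Chemokines and their receptors rose, with fractalkine as the main exception. Of 23 chemokine ligands 16 were tested, 13 were higher and 2 lower, with a median of 2.83 and 5 tested only through ICH. Ccl2, the main ligand that draws Ccr2 monocytes, measured 0.324, 0.716 and 0.680 FPKM in sham and 19.1, 21.1 and 19.5 in ICH (4.27 ± 0.16, limma adjusted p = 1.48e-06). It was tested only through ICH, so the filter fixes its direction. Ccl7, another ligand of Ccr2, rose by 4.58, and Pf4 was the member with the largest rise (6.45). Cx3cl1, the fractalkine that neurons carry on their surface, measured 135, 128 and 136 FPKM in sham and 46.7, 32.6 and 40.8 in ICH, and fell by 1.73 (SE 0.13, limma adjusted p = 1.96e-05). Its receptor Cx3cr1, on microglia, rose by 1.74. Of 14 chemokine receptors 8 were tested, 6 were higher and 0 lower (median 2.06, 3 tested only through ICH), with Cxcr4 at 3.45, Ccr1 at 3.37 and Ccr2 at 2.41. 

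Signals of the interleukin-1, tumour necrosis factor and toll-like receptor families rose almost throughout. Of 25 genes 22 were tested, 21 were higher and 0 lower, with a median of 1.95 and 8 tested only through ICH. The tumour necrosis factor receptors Tnfrsf1b and Tnfrsf1a rose by 3.57 and 2.82 and Tnf itself by 1.73. Il1b measured 0.1, 0.168 and 0.230 FPKM in sham and 1.61, 3.83 and 2.86 in ICH (2.24 ± 0.26, limma adjusted p = 1.37e-04). Il1b was tested only through ICH, so the filter fixes its direction and that its groups do not overlap. Tlr13, a receptor for bacterial ribosomal RNA in mice, rose by 3.53, Tlr2 by 2.77 and Tlr3, which binds double-stranded RNA, by 0.57. In the NF-kappaB list all 13 genes were tested, 12 were higher and 0 lower (median 1.20, 2 tested only through ICH), with the inhibitor-like Bcl3 (2.65), the kinase Ikbke (2.10) and the subunit Nfkb2 (1.95) moving most. Of 16 adhesion genes of leukocytes and vessels 12 were tested and all 12 were higher, with a median of 1.87 and 4 tested only through ICH. The hyaluronan receptor Cd44 rose by 3.31, the platelet and endothelial selectin Selp by 2.83 and the integrin chain Itgb7 by 2.60.

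**Figure D3:**
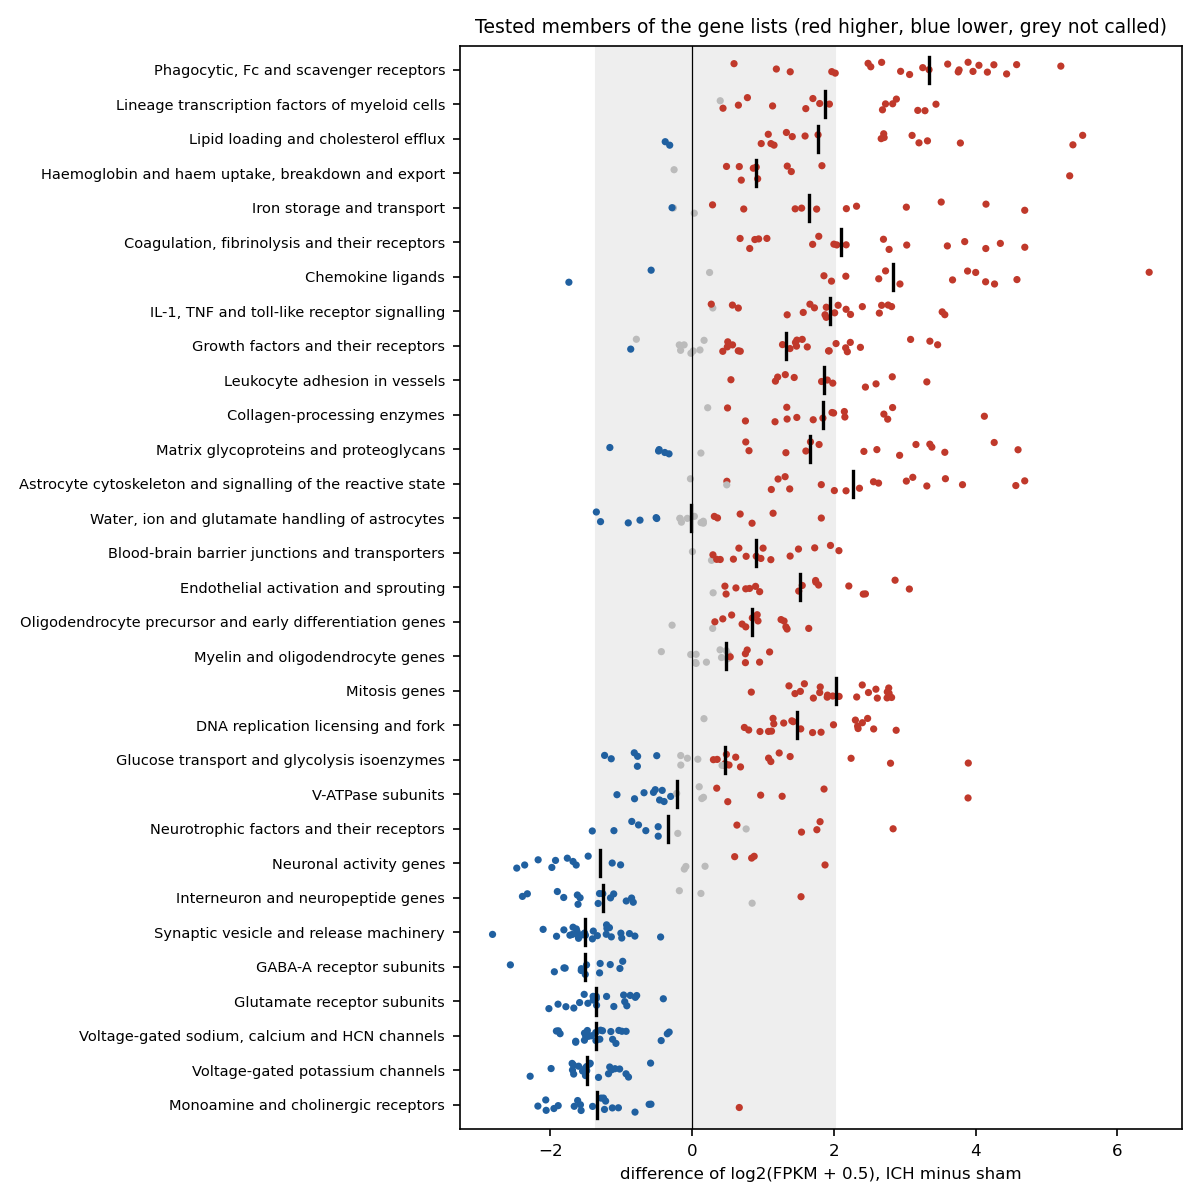
Difference of log2(FPKM + 0.5), ICH minus sham, for each tested member (points) of 31 gene lists, with the list's median as a black bar and the range that holds 90% of all tested genes (-1.36 to 2.02) shaded. Lists on uptake, chemokines and the reactive astrocyte state have medians to the right of or near the shaded edge, and lists of receptors, channels and vesicle proteins of neurons sit together near its left edge.

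Most genes of the growth factor list were higher, and those of the neurotrophic list went both ways. Of 38 growth factors and receptors 32 were tested, 23 were higher and 1 lower, with a median of 1.33 and 4 tested only through ICH. On the scales of an equal sum and without globin and mitochondrial genes 4 and 5 were lower, and without ICH 2 the count was 2. Igf1 measured 0.574, 0.800 and 0.547 FPKM in sham and 10.2, 12.9 and 13.2 in ICH (3.47 ± 0.14, limma adjusted p = 1.56e-06). It was tested only through ICH, so the filter fixes its direction. Csf2rb, the shared receptor chain of Il3, Il5 and Csf2, rose by 3.36 and Tgfb1 by 3.08. The placental growth factor Pgf rose by 1.94, while the main angiogenic factor Vegfa was not called (-0.11) and was lower, at -0.41, on the scale without globin and mitochondrial genes. The ligands of Csf1r moved apart. Csf1 measured 5.59, 5.98 and 4.06 FPKM in sham and 19.4, 21.3 and 22.3 in ICH, and Il34, the ligand that neurons make, 18.8, 16.0 and 21.3 and 12.4, 8.09 and 9.88 FPKM. Csf1 rose by 1.93 and Il34 fell by 0.86 (limma adjusted p = 1.57e-05 and 0.00195). Of 20 neurotrophic factors and receptors 14 were tested, 1 of them only through ICH. Of the 14, 5 were higher (35.7%) and 7 lower (50%), against 34.0% and 34.5% over all genes (median -0.34). Cntf, the ciliary neurotrophic factor of astrocytes, rose by 2.84, and Osm and Clcf1, cytokines of the same family, by 1.81 and 1.76. The neurotrophin receptor Ntrk3 fell by 1.40, Ntrk2 by 0.75 and Gfra2, a receptor of the GDNF family, by 1.10. Cntf overlaps Zfp91 on the same strand.

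Most genes that build and crosslink scar matrix rose, and the share that fell was below that over all genes. Of 18 collagen-processing enzymes 17 were tested, 16 were higher and 0 lower, with a median of 1.85 and 3 tested only through ICH. Lox, the lysyl oxidase that crosslinks collagen and elastin, measured 0.125, 0.225 and 0.244 FPKM in sham and 9.59, 10.4 and 15.7 in ICH (4.12 ± 0.19, limma adjusted p = 2.28e-06). It was tested only through ICH, so the filter fixes its direction. Loxl2 of the same family rose by 2.83 and Crtap, of the prolyl 3-hydroxylase complex, by 2.76. Of 23 matrix glycoproteins and proteoglycans 21 were tested (median 1.67, 3 tested only through ICH). Of the 21, 15 were higher (71.4%) and 5 lower (23.8%), against 34.0% and 34.5% over all genes. Thbs1, a thrombospondin, measured 3.74, 0.545 and 0.914 FPKM in sham and 28.1, 45.8 and 33.0 in ICH (4.26 ± 0.47, limma adjusted p = 1.10e-04). Sham 1 stood well above the other sham libraries and below all ICH libraries, and without it the difference was 4.86. The lectin Lgals1 rose by 4.6, Ecm1 by 3.57 and fibronectin, Fn1, by 3.36. The 5 that fell were Hapln4 (-1.16), Hapln1 (-0.47), Ncan (-0.46), Cspg5 (-0.38) and Bcan (-0.32), link proteins and proteoglycans of the perineuronal and perisynaptic matrix, of which 3 were called without ICH 3. Meningeal and perivascular fibroblast genes moved with these lists. Of 14 such genes 12 were tested, 10 were higher and 0 lower, 3 of them tested only through ICH, led by Col3a1 (4.93), Col1a1 (4.69, and 5.37 without sham 1) and Col1a2 (4.28), and their summed FPKM was 93.1 to 146 in sham and 337 to 417 in ICH. Their part in the matrix result was not tested.

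Most astrocyte genes of the reactive state rose, and those of water, ion and glutamate handling split near the shares over all genes. Of 20 genes of astrocyte cytoskeleton and signalling in the reactive state all were tested, 18 were higher and 0 lower, with a median of 2.27 and 3 tested only through ICH. Vim, the intermediate filament vimentin, measured 20.6, 41.4 and 19.4 FPKM in sham and 275, 329.6 and 327 in ICH (3.57 ± 0.26, limma adjusted p = 1.76e-05), and Gfap rose by 2.17. Sham 2 was the highest sham library for Vim and for Timp1, the metalloproteinase inhibitor (1.24, 6.32 and 3.57 FPKM in sham, 85.9, 92.8 and 79.6 in ICH). Lcn2, Timp1 and the membrane protein Emp1 moved most, by 4.69, 4.57 and 3.82. Lcn2 also marks neutrophils, and without sham 1 it rose by 4.09. Of 20 genes of water, ion and glutamate handling 6 were higher (30%) and 6 lower (30%), near the 34.0% and 34.5% over all genes (median -0.02). The water channel Aqp4 rose by 1.14 and the sodium pump regulator Fxyd1 by 1.82. The GABA transporter Slc6a11 fell by 1.29 and the main glutamate transporter Slc1a2 by 0.90, while glutamine synthetase, Glul, measured 309, 318 and 313 FPKM in sham and 339, 281 and 282 in ICH and was not called (-0.06). On the scale without globin and mitochondrial genes 10 of the 20 were lower, Glul among them (-0.37).

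Vessel genes were mostly higher. Of 18 genes of blood-brain barrier junctions and transporters 17 were tested, 15 were higher and 0 lower, with a median of 0.91. Cldn5, the claudin of brain endothelium, measured 27.6, 18.7 and 13.1 FPKM in sham and 73.3, 75.8 and 75.3 in ICH (1.95 ± 0.23, limma adjusted p = 1.50e-04). Cdh5, the cadherin of endothelial junctions, rose by 2.07 and the amino acid transporter Slc38a5 by 1.73, while occludin, Ocln, was at 0.28 and not called, though without sham 1 it was higher (0.38). Of 20 genes of endothelial activation and sprouting 18 were tested, 17 were higher and 0 lower (median 1.53, 4 tested only through ICH). The apelin receptor Aplnr rose by 3.07, Angpt2, the angiopoietin that loosens vessels, by 2.87 and Icam1 by 2.45.

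Most genes of oligodendrocyte precursors were higher, and the count of myelin genes called higher depended on single libraries. Of 15 precursor and early differentiation genes all were tested, 13 were higher and 0 lower, with a median of 0.85. Gpr17, a receptor of committed precursors, measured 16.5, 18.7 and 15.6 FPKM in sham and 40.4, 52.2 and 39.2 in ICH (1.34 ± 0.13, limma adjusted p = 5.52e-05), and Bmp4 and Cspg4 rose by 1.65 and 1.33. Of 17 myelin and oligodendrocyte genes 6 were higher (35.3%) and 0 lower (median 0.48), a share near the 34.0% over all genes, with Sox10, Cldn11 and Olig1 at 1.10, 0.95 and 0.78. Mbp, the myelin basic protein gene whose values are given above, was not called (0.50). Sham 1 was its highest sham library, and without sham 1 12 of the 17 were higher, Mbp (0.80) among them. Without ICH 2, with all genes above 0 tested, and on the scale without globin and mitochondrial genes, the count was 3 of 17.

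Genes of dividing cells were higher. Of 26 genes of DNA replication licensing and the fork 22 were tested, 21 were higher and 0 lower, with a median of 1.48 and 7 tested only through ICH. Mcm3, a subunit of the replicative helicase, measured 1.37, 1.24 and 0.888 FPKM in sham and 9.47, 12.5 and 13.4 in ICH (2.88 ± 0.16, limma adjusted p = 4.89e-06). Rrm2, which makes deoxynucleotides, rose by 2.56 and the licensing factor Cdt1 by 2.48. Of 24 mitosis genes 22 were tested and all 22 were higher, with a median of 2.03 and 11 tested only through ICH. Birc5, of the chromosomal passenger complex, rose by 2.82, and Ube2c and Cdc20, of the anaphase-promoting complex, by 2.78 each. Ube2c measured 0.522, 1.04 and 0.589 FPKM in sham and 6.27, 9.09 and 8.07 in ICH. Of 22 genes that govern the G1 phase 20 were tested, 14 were higher and 2 lower (median 1.26, 5 tested only through ICH and 1 only through sham), led by Cdkn2c (2.36), E2f2 (2.13) and Ccnd1 (2.04). The lower pair was Ccnd2 and Mycn, of which 1 was called without sham 1 or sham 2.

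Promoters of these cell-cycle lists were searched for short words. Promoter windows were taken from RefSeq (GRCm38.p6), from 250 bases before to 50 after each gene's start, and 4 words were searched on both strands. The words were kept after others had been looked at, and no word contains another. TTTGAA, the core of the cell-cycle homology element, was in 16 of 22 windows of the mitosis genes (72.7%), in 3 of 25 windows of the replication genes (12%) and in 17.9% of all 32851 windows. CCAAT was in 19 of the 22 mitosis windows (86.4%), in 15 of the 25 replication windows (60%) and in 37.4% of all. TTTCCCGC or TTTGGCGC, words of E2F binding sites, were in 8 of the 25 replication windows (32%), in 0 of the 22 mitosis windows and in 1.56% of all. The windows cover 21 of the 24 mitosis genes and 21 of the 26 replication genes, and a match is a description and no proof of binding. The following 150-base stretches run from 120 bases before to 30 after the start and show the words in the 4 mitosis genes with the largest rise among those holding TTTGAA there. Genes on a chromosome left out of printing were not eligible, here or in the next set. Capitals mark TTTGAA and CCAAT on either strand. The stretches lie at chr2:164769809-164769958 (plus strand), chr4:118437314-118437463, chr10:69352883-69353032 and chr9:70421525-70421674 (minus strand).

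Ube2c: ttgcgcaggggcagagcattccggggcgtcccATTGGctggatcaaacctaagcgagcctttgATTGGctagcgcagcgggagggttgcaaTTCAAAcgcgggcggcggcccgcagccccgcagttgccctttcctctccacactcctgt
Cdc20: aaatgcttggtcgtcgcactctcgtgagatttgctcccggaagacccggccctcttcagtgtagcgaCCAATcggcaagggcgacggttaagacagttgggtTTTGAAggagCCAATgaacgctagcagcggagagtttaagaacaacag
Cdk1: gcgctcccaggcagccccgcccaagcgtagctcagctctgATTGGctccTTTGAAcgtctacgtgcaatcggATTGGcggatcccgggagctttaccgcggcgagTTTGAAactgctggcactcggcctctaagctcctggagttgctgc
Ccnb2: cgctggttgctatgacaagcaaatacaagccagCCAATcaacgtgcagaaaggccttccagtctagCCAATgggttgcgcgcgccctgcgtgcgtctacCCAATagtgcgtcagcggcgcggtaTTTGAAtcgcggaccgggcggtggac

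The next stretches are the 3 replication genes with the largest rise among those holding an E2F word there, which capitals mark on either strand. They lie at chr1:20820283-20820432, chr1:128359676-128359825 and chr5:151651179-151651328, all on the minus strand.

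Mcm3: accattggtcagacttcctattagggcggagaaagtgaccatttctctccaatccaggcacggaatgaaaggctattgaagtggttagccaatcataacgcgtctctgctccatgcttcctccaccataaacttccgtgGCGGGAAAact
Mcm6: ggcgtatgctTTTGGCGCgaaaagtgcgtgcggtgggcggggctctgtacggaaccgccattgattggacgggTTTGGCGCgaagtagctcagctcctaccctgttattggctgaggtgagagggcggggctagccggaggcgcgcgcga
Rfc3: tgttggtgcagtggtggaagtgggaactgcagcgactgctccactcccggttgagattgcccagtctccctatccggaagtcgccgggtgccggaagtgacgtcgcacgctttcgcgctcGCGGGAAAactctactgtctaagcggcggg

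Of these genes Cdk1, the mitotic kinase, rose by 2.76, Ccnb2, its cyclin partner, by 2.75, and Cdc20 by 2.78. Mcm6, of the same helicase as Mcm3, rose by 2.34 and Rfc3, of the clamp loader, by 0.96.

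Some isoenzymes and subunits of the same machine moved in opposite directions, and the pairs set against each other were picked for that. Of 27 genes of glucose transport and glycolysis all were tested, with a median of 0.46. Of these 16 were higher (59.3%) and 6 lower (22.2%), against 34.0% and 34.5% over all genes. Hk3 and Hk2 measured 0.901, 1.43 and 0.829 and 0.823, 1.45 and 1.09 FPKM in sham and 17.8, 25.2 and 24.7 and 6.41, 7.58 and 7.30 FPKM in ICH. Both rose, by 3.90 and 2.24, while Hk1, the main hexokinase of brain, fell by 0.77. Slc2a1, the glucose transporter of the barrier and glia, rose by 1.11 and Slc2a3, that of neurons, fell by 1.23. The neuronal enolase Eno2 fell by 1.14 and Eno1 rose by 0.62. The lactate exporter Slc16a3 rose by 2.80. On the scale without globin and mitochondrial genes 8 of the 27 were higher. Of 19 subunits and accessory proteins of the vacuolar proton pump 6 were higher (31.6%) and 9 lower (47.4%), against 34.0% and 34.5% over all genes. The median was -0.21, and 1 member, Atp6v0d2, was tested only through ICH, so the filter fixes its direction. Atp6v0d2, a subunit of macrophages and osteoclasts, measured 0.106, 0.0633 and 0.0759 FPKM in sham and 7.93, 10.6 and 6.40 in ICH (3.89 ± 0.18, limma adjusted p = 2.29e-06). The subunits Atp6v0e and Atp6v1g1 rose by 1.86 and 1.27, while the neuronal Atp6v1g2 fell by 1.06 and Atp6v0a1 by 0.81.

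Most cytoskeletal genes were higher, while some tubulins and D-type cyclins moved in opposite directions. Of 27 actin and tubulin genes 26 were tested, with a median of 1.22. Of the 26, 20 were higher (76.9%) and 3 lower (11.5%), against 34.0% and 34.5% over all genes. The actin regulators Capg and Lcp1 of leukocytes rose by 4.99 and 3.85. The tubulin Tubb6 rose by 3.39, whereas the neuronal Tubb3 fell by 0.66 and Tuba4a by 1.55. Among D-type cyclins Ccnd1 and Ccnd3 rose by 2.04 and 1.32, and Ccnd2 measured 6.10, 7.63 and 7.60 FPKM in sham and 3.80, 3.58 and 4.35 in ICH and fell by 0.78. In the list of protein translocation, glycosylation and secretion at the endoplasmic reticulum all 24 genes were tested, 18 were higher and 1 lower (median 0.94), led by Sec61b (1.84), Kdelr2 (1.41) and Ssr4 (1.26). The lower 1, Sec62 (-0.29), was not called without ICH 3.

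**Figure D4:**
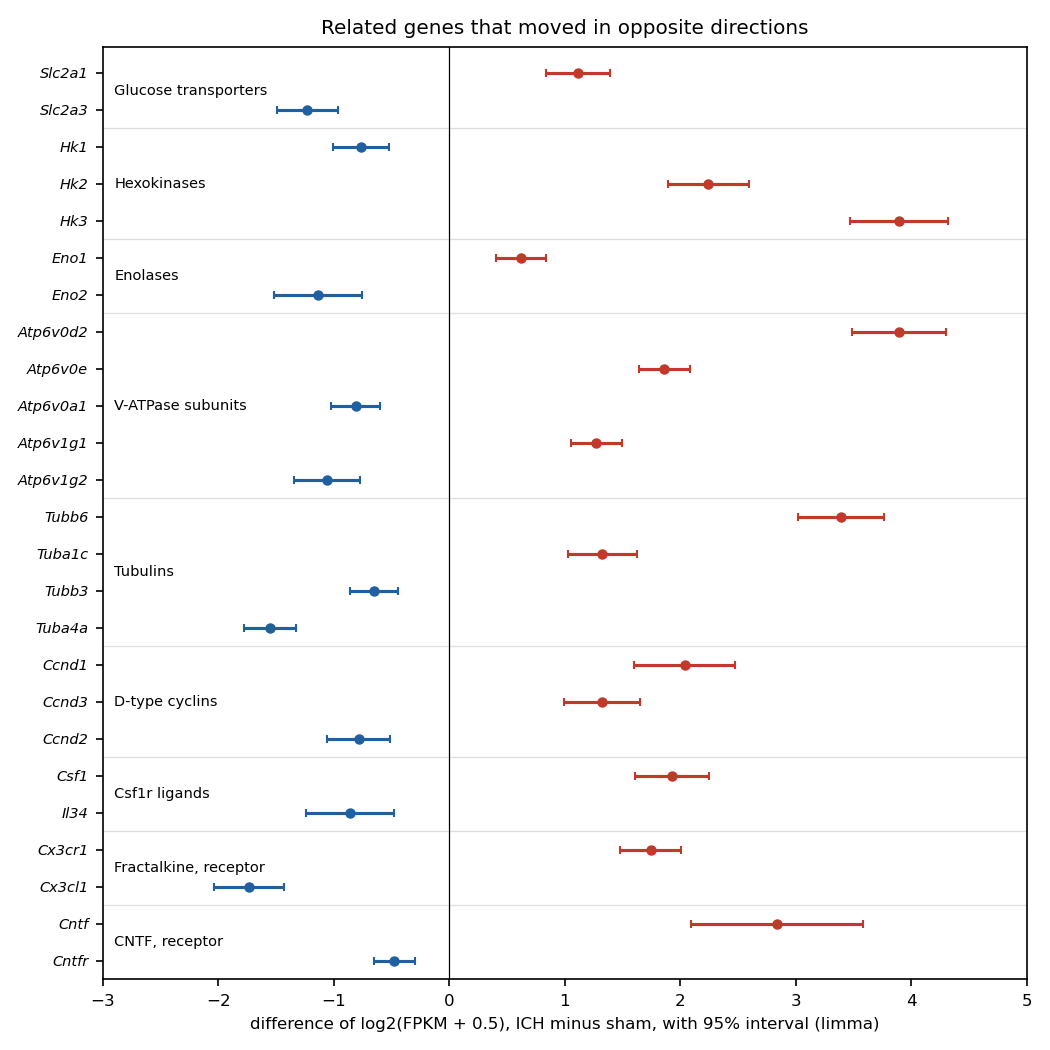
Difference of log2(FPKM + 0.5), ICH minus sham, with its 95% limma interval for related genes called in opposite directions (red higher, blue lower, 3 mice per group). The sets were picked for members called in opposite directions, so each holds at least 1 on each side of 0. Examples are Hk3 at 3.90 and Hk1 at -0.77. Atp6v0d2 was tested only through ICH, so the filter fixes its direction.

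Genes of transmitter release and of the GABA-A and glutamate receptors were all lower among the members tested. Of 28 genes of synaptic vesicles and release 27 were tested and all 27 were lower, with a median of -1.5. Syt1, the calcium sensor of release, measured 93.6, 104 and 113 FPKM in sham and 34.3, 22.9 and 25.4 in ICH (-1.91 ± 0.15, limma adjusted p = 2.50e-05). Slc17a7, Sv2b and Syt1 moved most, by -2.81, -2.10 and -1.91, and Vamp1 least (-0.44). The 13 tested of 16 GABA-A receptor subunits all fell (median -1.5, 1 tested only through sham), with Gabrb2 moving most (-2.56). The 22 tested of 25 glutamate receptor subunits all fell (median -1.35, 2 tested only through sham). Grin2b, of the NMDA receptor, measured 9.05, 12.4 and 14.8 FPKM in sham and 3.06, 2.16 and 2.51 in ICH, and fell by 2.02 (limma adjusted p = 4.44e-05). The metabotropic Grm5 fell by 1.89 and the AMPA subunit Gria2 by 1.78, and Grin2c, which astrocytes and cerebellar granule cells use, by 0.40. Vamp1 was not called without sham 2 (-0.37), and Grin2c was not called when any library but ICH 1 was left out (adjusted p of 0.0574 to 0.103 in limma). For Syt1 and Grin2b ICH 2 was the lowest and ICH 1 the highest of the ICH libraries, and the groups did not overlap.

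Voltage-gated channels gave the same picture. All 25 tested of 28 sodium, calcium and HCN channel genes were lower, with a median of -1.35, and so were all 24 tested of 27 potassium channel genes, with a median of -1.48. In each of these lists 1 gene was tested only through sham. The sodium channel subunit Scn3b fell by 1.91 and the calcium channel subunits Cacng3 and Cacnb4 by 1.88 and 1.86. Kcnf1, a silent potassium channel subunit, measured 14.2, 16.9 and 17.6 FPKM in sham and 3.38, 2.76 and 2.69 in ICH (-2.28 ± 0.12, limma adjusted p = 3.56e-06). Kcnh1 fell by 1.99. Of 25 monoamine, cannabinoid and cholinergic receptors 20 were tested, 19 were lower and 1 higher (median -1.34), of which 4 were tested only through sham and 1 only through ICH. After quantile normalization 0 were higher. The serotonin receptors Htr2a, Htr2c and Htr1a fell by 2.17, 2.06 and 2.06. Of 16 striatal projection neuron genes all were tested and all 16 were lower (median -1.35), led by Rarb (-1.93), Pde10a (-1.76) and Rgs9 (-1.70).

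Interneuron and peptide genes were mostly lower, with 1 exception. Of 21 genes 19 were tested, 15 were lower and 1 higher, with a median of -1.26 and 1 tested only through sham. Calb2 measured 24.1, 25.1 and 16.1 FPKM in sham and 3.52, 2.80 and 4.97 in ICH (-2.39 ± 0.22, limma adjusted p = 4.59e-05), and the peptides Nts and Cck fell by 2.32 and 1.9. Pvalb, the calcium buffer of fast-spiking cells, was the only member called higher. It measured 45.9, 15.1 and 13 FPKM in sham and 83.0, 85.4 and 32.9 in ICH (1.54 ± 0.52, limma adjusted p = 0.0288). Its groups overlap, since ICH 3 lies under sham 1, and the call was lost without ICH 1, ICH 2, sham 2 or sham 3 (limma adjusted p of 0.0824 to 0.094). It was also lost on the scale without globin and mitochondrial genes (adjusted p = 0.0522 in limma) and with all genes above 0 tested (0.105). The peptide gene Gal, at 0.85 and not called, was higher without sham 2 (1.44). Skeletal muscle also uses Pvalb. A list of 11 other skeletal muscle genes, added after the Pvalb values had been seen, had 9 tested, 4 higher and 0 lower, with a summed FPKM of 18.1 to 23.6 in sham and 25.9 to 26.9 in ICH, and its part in the Pvalb values was not tested. Sst and Npy were not called, at -0.18 and 0.13, though without ICH 1 Sst was lower (-0.38).

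Most genes induced by neuronal activity were lower, and 4 were higher. Of 20 such genes 18 were tested, 11 were lower and 4 higher (median -1.29), with 4 tested only through sham, whose fall the filter sets. Egr3 measured 23.9, 23.9 and 22.8 FPKM in sham and 4.28, 3.33 and 3.96 in ICH (-2.47 ± 0.10, limma adjusted p = 1.69e-06). Egr4 and Egr1 fell by 2.36 and 2.17, and the synaptic genes Arc and Homer1 by 1.97 and 1.92. The 4 that rose were Ier2, Fos, Junb and Btg2, by 1.88, 0.88, 0.84 and 0.60. Fos measured 6.06, 8.28 and 3.36 FPKM in sham and 9.51, 12.2 and 10.4 in ICH, and its relative Fosb 1.49, 1.92 and 1.57 and 0.585, 0.536 and 0.592. Fosb fell by 1.01, but it was tested only through sham, so the filter sets its direction. Without ICH 2 the call of Fos was lost (0.78, limma adjusted p = 0.0568), and on the scale without globin and mitochondrial genes 2 of the 18 were higher. Of 18 axon injury and regrowth genes all were tested, 1 of them only through ICH and 1 only through sham. Of the 18, 7 were higher (38.9%) and 6 lower (33.3%), near the 34.0% and 34.5% over all genes (median -0.05). The injury-induced Atf3, Tubb6 and Sprr1a rose by 4.34, 3.39 and 3.21, while the growth-associated Gap43 fell by 0.82.

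Long noncoding and imprinted transcripts were mostly lower. Of 20 listed 16 were tested, 4 were higher and 11 lower, with a median of -0.84. H19, a maternally expressed noncoding RNA, measured 0.201, 1.02 and 0.281 FPKM in sham and 8.59, 11.2 and 23.7 in ICH (3.87 ± 0.40, limma adjusted p = 8.30e-05). ICH 3 was the highest library. Neat1, the RNA of nuclear paraspeckles, rose by 2.28. Dlk1, which lies in the same imprinted cluster as Meg3, measured 4.61, 9.40 and 7.55 FPKM in sham and 0.856, 0.696 and 1.73 in ICH and fell by 2.27, and Meg3 fell by 0.99.

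Several genes commonly used as references differed between the groups. Of 20 listed 19 were tested, 12 were higher and 4 lower, with a median of 0.69. Gusb, a lysosomal glucuronidase, measured 4.95, 6.99 and 4.44 FPKM in sham and 55.9, 79.0 and 75.9 in ICH (3.58 ± 0.19, limma adjusted p = 3.43e-06). B2m, the light chain of class I molecules, rose by 2.70, the ribosomal Rplp0, Rps18 and Rpl13a by 1.87, 1.41 and 1.10, and Actb by 1.59. Gapdh rose by 1.08, Eef1a1 by 0.87, Pgk1 by 0.69, Ppia by 0.67 and Tubb5 by 0.54. Ywhaz, Sdha, Hsp90ab1 and Tbp fell by 0.82, 0.59, 0.46 and 0.34. Among those not called were Polr2a (0.18) and Hprt. Hprt measured 86.7, 82.4 and 76.5 FPKM in sham and 80.7, 76.5 and 79.0 in ICH, a difference of -0.05 with a 95% interval of -0.25 to 0.14. The values overlap, and the interval holds neither a 2-fold rise nor a 2-fold fall. Hprt was lower, at -0.36, on the scale without globin and mitochondrial genes. The call of Gapdh was lost when any sham library was left out (limma adjusted p of 0.0552 to 0.0775), and those of Tbp without ICH 2 or sham 2. Gapdh, Actb, Ppia, Eef1a1 and the ribosomal genes have many processed copies, so their reads may be shared with those.

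**Figure D5:**
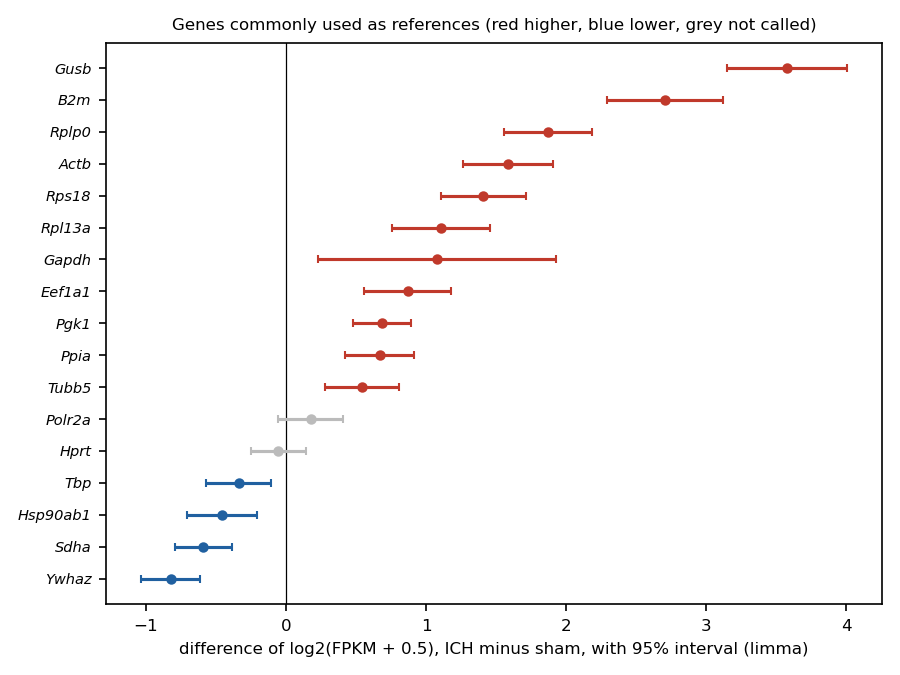
Difference of log2(FPKM + 0.5), ICH minus sham, with its 95% limma interval for 17 of the 19 tested reference genes (red higher, blue lower, grey not called, 3 mice per group). The differences run from -0.82 for Ywhaz to 3.58 for Gusb, and Hprt lies closest to 0.

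Markers of other cells and of neighbouring tissue varied in their own ways. Of 14 neutrophil markers 6 were tested, all 6 higher, 4 of them only through ICH, and their summed FPKM was 6.91 to 12.6 in sham and 127 to 145 in ICH, where Lcn2 was the largest part. Mmp8, a collagenase of neutrophil granules, measured 0.0770, 0.0835 and 0 FPKM in sham and 5.97, 7.96 and 9.86 in ICH, and the calprotectin subunit S100a9 was at 3.64. Mmp8 was tested only through ICH, so the filter fixes its direction. Lcn2 is also a gene of reactive astrocytes, and the part of neutrophils in the lists above was not tested. Of 19 markers of T, B and NK cells 4 were tested, 2 of them only through ICH, Cd79b (1.72) and Trac (0.99) were higher and Cd4 was lower (-1.18), and the summed FPKM was 12.1 to 19.5 in sham and 13.8 to 19.9 in ICH. Of 13 erythroid and platelet genes 6 were tested and 5 were higher, Pf4 and the near-identical globin genes Hba-a2 (2.02), Hbb-bs (1.70), Hba-a1 and Hbb-bt, whose reads may be shared. Globins accounted for 0.00453% to 0.0110% of the FPKM sum in sham and 0.0190% to 0.0299% in ICH. Of 14 small intestine genes, a tissue that should be absent, 1 was tested, Apoa1, and it was not called (-0.17), though without sham 1 it was lower (-0.47). Of 9 mast cell and eosinophil markers 1 was tested, Kit, which interneurons also use, and it fell by 0.78.

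Some libraries differed within a group in region-specific genes. Ttr, the transthyretin of choroid plexus, measured 933, 251 and 50.1 FPKM in sham and 881, 24.7 and 39.4 in ICH. Sham 1 and ICH 1 were high and the others lower, so the groups overlapped and the gene was not called. Pmch, the melanin-concentrating hormone precursor of the lateral hypothalamus, measured 1.52, 0.606 and 0.266 FPKM in sham and 2.37, 0.579 and 193 in ICH, where ICH 3 alone was high and the gene was not called, except without ICH 2 (4.30). Of 13 hypothalamic and pituitary genes 5 were tested and 0 called, with Oxt and Avp at -1.70 and 1.5 (Avp was higher without sham 2, at 2.85) and a summed FPKM of 7.81 to 57.1 in sham and 7.84 to 244 in ICH. Of 9 choroid plexus genes 6 were tested and 1 was higher, Aqp1 (0.96), with Kcnj13, Ttr and Clic6 at -1.28, -1.25 and -1.24 and not called (Kcnj13 and Clic6 were lower without ICH 1, at -1.92 each, and Kcnj13 without sham 3, at -1.91), and of 10 ependymal and motile cilia genes 7 were tested and 4 were lower, led by Tmem212 (-1.34), Ccdc153 (-1.31) and Spag6l (-1.21). Of these ependymal genes 2 were called without ICH 1, ICH 3 or sham 1, and 1 was tested only through sham. Of 12 thalamic genes 11 were tested, 1 of them only through ICH. Of the 11, 4 were higher (36.4%) and 4 lower (36.4%), near the 34.0% and 34.5% over all genes. Calb2, Zic1 and Prkcd were at -2.39, -1.9 and 1.18. In this list 1 or 2 genes were higher without ICH 1, ICH 2, sham 2 or sham 3. Whether unequal sampling of regions contributes to other differences was not tested.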

How the data were processed

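Brain libraries of 3 sham and 3 ICH mice were compared, grouped by the labels. Each replicate number was taken as another mouse, so the tests set a difference against the spread between mice. RNA with an integrity number over 7 went, per the labels' protocols, through oligo(dT) selection and a strand-keeping library kit, and use of the strand in quantification is not stated in the sources used here. The authors deposited 1 table of FPKM per gene and library, and the submitters' processing notes name StringTie 1.3.4d, HISAT2 2.0.4 and cutadapt 1.9. A genome build is not named there. Positions matched those of GENCODE M21 for 33201 of the 36224 genes found in both (91.7%). Columns were assigned to libraries by their names, with 0 unassigned.

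FPKM is not a count, so count models do not apply. A rough depth came from the spacing of low values of genes with a single exon. Between 10.7% and 11.8% of these values were whole multiples of that spacing, with a tolerance of 0.02, so whole reads were not recovered and no counting interval is given. Tests ran in R 4.3.3 with limma 3.58.1 on log2(FPKM + 0.5), with a mean-variance trend, 4 residual degrees of freedom and Benjamini-Hochberg adjustment over the 14888 genes. Intervals are 95% limma intervals, ± after a log2 difference is its standard error, and ± after a share is the SD. The fit was tested on simulated data. Where a symbol occurred repeatedly, the entry with the highest mean stands for it.

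Gene lists were written by hand, 55 lists with 1001 distinct genes. Of these 7 had no entry under the symbol and 830 were tested, of which 471 were higher and 242 lower. The members and lists were chosen with earlier results of these data known, and the skeletal muscle list after the Pvalb values had been seen. Named were the 12 largest rises and falls among genes that averaged 5 FPKM or more in their higher group and have no predicted-gene name, the 3 largest changes of each list with further members, all reference genes, and in each case 8 genes with narrow intervals around 0, listed at 0 in a whole group, or widest in range among sham mice. Some items that this rule names are not reported here. Genes nearly absent in 1 group could pass the filter through the other alone, which fixes their direction in the counts of their lists. Alternatives were pseudocounts of 0.1 and 1, other filters and scalings, no trend, array weights, a replicate block and leaving out each library.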

Additional observations from a re-analysis of the deposited data

How the results depend on the processing

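Under 17 alternatives the counts of genes stayed within 1.5 times of those reported with 1 exception. Genes at least 2-fold lower were 2720 in place of 1640 when FPKM was scaled to a common sum without globin and mitochondrially encoded genes, and 2147 with a common sum of all genes (TPM scaling). Among called genes the share that was higher was 49.6% as reported, 40.2% after TPM scaling, 43.7% after quantile normalization and 33.8% without globin and mitochondrial genes. Among 2-fold calls it was 58.8%, 48.0%, 49.9% and 39.7%. The median of all genes moved by -0.15, -0.10 and -0.27 under these scalings and by 0.01 with the median of ratios. Leaving out each library in turn gave 4591 to 5270 genes higher and 4560 to 5079 lower, 2229 to 2504 at least 2-fold higher and 1427 to 1828 at least 2-fold lower. The difference in the share of summed FPKM from mitochondrially encoded genes was -6.83 to -8.34 percentage points. Of 252 named genes that were called, 232 were called in the same direction under all 17 alternatives. Slc11a2 changed sign and was lower without globin and mitochondrial genes (-0.25). After quantile normalization Eef1a1 was not called (0.07) and Glul was lower (-0.69). Aldoa, Ckb, Cox8a and mt-Ts1 also changed sign there and were lower (-0.62, -0.57, -0.41 and -0.86). Of 75 counts of list members called in a direction 58 stayed within 1.5 times in every setting. Of the others, lower growth factor genes were 4 after TPM scaling and 5 without globin and mitochondrial genes against 1, and lower arginine genes were 5 against 2 in the latter. Same-numbered sham and ICH mice did not deviate together, with correlations of -0.003, 0.066 and 0.079 across genes, and no library correlated best with its own number. With the replicate number as a block 4961 genes were higher and 5037 lower, 2348 and 1637 of them at least 2-fold. FPKM without counts gives no depth behind a single value, so low genes are the least certain. The median interval of a log2 difference was ± 0.40 for genes with a mean under 1 FPKM and ± 0.32 at 1 to 5 FPKM. At 5 to 20 and at 20 to 100 FPKM it was ± 0.25. It was wider again, ± 0.31, at 100 FPKM or more.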

Other observations

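Classes of transcripts differed in their balance. Of 13105 tested protein-coding genes 4513 were higher and 4635 lower, with a median log2 difference of -0.01. Of 626 long noncoding genes 110 were higher (17.6%) and 251 lower (40.1%), with a median of -0.23. Of 820 pseudogenes 398 were higher and 124 lower, with a median of 0.41. Ribosomal protein pseudogenes by name were higher in 73 of 87 and lower in 0, with a median of 0.99, against 329 higher and 124 lower of 737 other pseudogenes. The names were not limited to the pseudogene class, and 4 of the 87 are annotated in another class. Reads of a pseudogene and of its parent gene may be shared, and the part of this in the counts was not tested. Genes with a mean of at least 100 FPKM were higher in 50.8% and lower in 29.8% of 305, with a median of 0.40, and those of 1 to 5 FPKM in 31.0% and 31.1% of 6358.

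Some genes were listed at 0 in a whole group. 220 genes were at 0 in all 3 sham libraries and above 0 in all 3 ICH libraries, and 248 the other way. An FPKM of 0 can stand for an estimate that failed. The named genes with the highest levels in ICH among those at 0 in sham were Gm19253, Prnd, Mmp10, Mefv, Mir142, Gm6377, Gpr171 and Gm36172. Prnd, the prion-like protein doppel, was at 2.79, 3.71 and 5.18 FPKM in ICH, and Mmp10, a stromelysin of the metalloproteinase family, at 2.13, 5.30 and 4.20 FPKM. Mefv, the pyrin of myeloid cells, was at 1.12, 1.95 and 2.24 FPKM. Mir142 is the hairpin of a miRNA of blood cells, and its FPKM of 1.23, 2.0 and 1.57 in an oligo(dT) library is no measure of the mature miRNA. The highest in sham among those at 0 in ICH were Gm17720 (2.27, 2.26 and 2.61 FPKM), Gm41414, Gm17091, Gm49929, Mir665, Gm44846, Iglj1 and Gm22969.

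For 3377 genes (22.7%) the 95% interval of the log2 difference lay within -0.5 to 0.5. The 8 with the highest mean were mt-Ts1, Ubb, Aldoa, Ckb, Glul, Ldhb, Cox8a and Prnp. After quantile normalization all 8 were called lower, from -0.41 for Cox8a to -0.91 for Ubb, and the groups of Prnp did not overlap. Aldoa, an aldolase, measured 393, 358 and 356 FPKM in sham and 387, 400.4 and 384 in ICH, and Ckb, the brain creatine kinase, 411, 328 and 335 and 402, 362 and 375 FPKM.

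The sham libraries spanned at least 4-fold in 43 tested genes and the ICH libraries in 30. The 8 widest among sham were mt-Tg, Avp, Gm49510, Ttr, Hnrnpa3, Oxt, Gm20716 and Rps27a-ps2. Hnrnpa3, an RNA-binding protein with many processed copies, measured 27.3, 1.48 and 1.58 FPKM in sham and 21.7, 22.7 and 23.0 in ICH, so sham 1 lay with the ICH libraries. Of the tested genes 827 were under 1 FPKM in all sham libraries, 823 of them called higher, and 397 were under 1 FPKM in all ICH libraries, 386 of them called lower, which the filter largely sets. Next to the filter, the third-highest value was 1.0 FPKM for Gm25772 and Syne2, which were tested, and just under 1 FPKM for Gm14419 and Naalad2, which were not.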
